A study of Mus musculus with 12 samples.

Results

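The glutathione and thioredoxin systems of macrophages were followed through 10 genes, Gclc, Gclm, Gsr, Slc7a11, Txnrd1, Srxn1, Prdx1, Txn1, Gpx1 and Gpx4, taken by symbol from a table of 43278 genes. All 10 were listed, and all 10 were among the 13482 genes that passed a filter on low values, which asked for a normalized count of 10 or more in no fewer than 3 libraries. The normalized count is the number of reads assigned to a gene in a library, divided by a single factor for that library and rounded to a whole number. The libraries came from thioglycolate-elicited peritoneal macrophages (PMφs) of wild-type C57BL/6J mice of both sexes aged 8 to 12 wk, in 4 groups of 3. Control PMφs received neither agent, oxLDL PMφs received 100 µg/ml oxidized low-density lipoprotein of human origin for 24 h, LPS PMφs received 10 ng/ml ultrapure bacterial lipopolysaccharide, and oxLDL+LPS PMφs received the lipoprotein first and then LPS. All 4 groups share the thioglycolate elicitation, with 1 ml of a 4% solution, and 18 h of adherence in culture. Cells of up to 10 mice were combined in each experiment before they were split into groups, so each library is a culture of combined mice, not an animal. The duration of LPS in these libraries is not stated, and the methods give up to 6 h.

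Glutathione is a small thiol that cells make from glutamate, cysteine and glycine. Cysteine enters macrophages mainly as cystine through the exchanger xCT, whose transport subunit is Slc7a11, and the first and limiting step of synthesis is done by glutamate-cysteine ligase, made of the catalytic subunit Gclc and the modifier subunit Gclm. Gsr, glutathione reductase, returns oxidized glutathione to its reduced form with NADPH. Txnrd1, a selenoprotein, does the same for Txn1, the thioredoxin of the cytosol. Thioredoxin passes its electrons to Prdx1, a peroxiredoxin that removes hydrogen peroxide, and Srxn1, sulfiredoxin, repairs peroxiredoxins that have been overoxidized. Gpx1 and Gpx4 are selenoproteins that use glutathione, Gpx1 to remove hydrogen peroxide in the cytosol and Gpx4 to remove lipid peroxides in membranes. Many of these genes are known targets of the transcription factor NRF2, encoded by Nfe2l2, which binds antioxidant response elements and is held in check by KEAP1.

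Positions follow GENCODE M21 on GRCm38. Of the genes for glutathione synthesis, Slc7a11 lies on chromosome 3 (49892526 to 50443614, minus strand), Gclc on chromosome 9 (77754535 to 77794485, plus strand) and Gclm on chromosome 3 (122245557 to 122270732, plus strand). The reductases are on chromosome 8 for Gsr (33652523 to 33698163, plus strand) and chromosome 10 for Txnrd1 (82833951 to 82897712, plus strand). Txn1 and Prdx1 are both on chromosome 4 (57943373 to 57956411, minus strand, and 116685544 to 116700822, plus strand), and Srxn1 is on chromosome 2 (152105516 to 152111376, plus strand). Gpx1 is on chromosome 9 (108338903 to 108340343, plus strand) and Gpx4 on chromosome 10 (80047166 to 80056439, plus strand).

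Because the 10 genes include known NRF2 targets, their promoter windows were searched for the core of the antioxidant response element, TGACNNNGC, on both strands. RefSeq windows on GRCm38.p6, which run from 250 bases before to 50 after a transcription start, were at hand for 8 of the 10 genes, and Gclc and Gsr have no entry. The core was found for 4 of these 8 genes, in 4 of their 13 windows, beside 14.0% of 27025 genes and 12.4% of 32851 windows of the same length. It was not found in the windows of Slc7a11, Txn1, Gpx1 and Gpx4, and such a match or its absence describes only these letters in these windows. The stretches around the 4 matches, in Gclm, Prdx1, Txnrd1 and Srxn1, are shown because they were the only ones found. A link between the core and the differences below was not tested. Each is written 5′ to 3′ on the strand of its gene with the core in capitals, which read as its reverse complement since all 4 matches lie on the opposite strand.
Gclm, chr3:122245403-122245451: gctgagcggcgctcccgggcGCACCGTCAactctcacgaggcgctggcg
Prdx1, chr4:116685446-116685494: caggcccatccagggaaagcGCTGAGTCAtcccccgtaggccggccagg
Txnrd1, chr10:82859094-82859142: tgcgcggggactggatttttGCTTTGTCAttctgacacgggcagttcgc
Srxn1, chr2:152105532-152105560: gccacggcgggcagtgggcaGCTAGGTCA
Counted from the transcription start, the first base of the core lay at -134 for Gclm and -133 for Prdx1. It lay at -92 for Txnrd1 and 29 for Srxn1. The stretch of Srxn1 is shown only to the end of the core. The core was found in 1 of the 3 Txnrd1 windows, the one that runs from 82858956 to 82859255.

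The libraries held an estimated 16.7 to 26.2 M reads assigned to genes, from factors inferred from the spacing of the rounded values. The macrophage markers listed for the cell type check, 8 of 8 present, summed to between 231967 and 347950 normalized counts. All 6 genes listed as a check of the LPS label were higher with LPS, with a median log2 difference of 11.3 without oxLDL. Markers of B cells, T cells, neutrophils, eosinophils and mast cells summed to between 24 and 385 in any library. Sex-linked transcripts differed between the cultures. Replicate 2 libraries had 0 to 2 normalized counts over 4 Y-linked genes in all 4 groups, with Xist between 5933 and 7751, and replicate 3 libraries had both. Replicate 1 libraries of the control and oxLDL groups had Xist at 1 and 2, whereas those of the LPS and oxLDL+LPS groups had 6331 and 3812, so the number 1 cells of the LPS groups were not the same mixture as those without LPS. The Y-linked genes of these LPS and oxLDL+LPS libraries summed to 1023 and 1004, so that they were close in these and apart in Xist, and whether number 1 was a single mixture within the LPS groups was not tested. Deviations from the group means nevertheless went together for libraries of the same number, with correlations of 0.664 to 0.733 over 11186 genes between groups with the same LPS state and 0.305 to 0.665 between LPS states. Each comparison was therefore fitted with limma across all genes without and with the replicate number as a block, and the LPS comparisons are also given without number 1. Differences are of log2(normalized count + 1), folds are taken from them, errors after a difference are its standard error, and a gene is said to rise, fall or pass where its Benjamini-Hochberg adjusted p over all genes tested is under 0.1. In such bulk samples, fewer cells of a type and less RNA per cell cannot be told apart.

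Per kilobase of transcript, Gpx1 was the highest of the 10 genes in control PMφs, at 10960 ± 988 normalized counts per kb (SD, n = 3), followed by Prdx1 at 7782 ± 2600 and Txn1 at 7546 ± 1050. Slc7a11 was the lowest, at 32.0 ± 4.1 per kb. In oxLDL+LPS PMφs the order was led by Prdx1, at 70110 ± 42600 per kb, then Txn1 at 15490 ± 2860 and Txnrd1 at 7344 ± 2980, while Gpx1 stood at 6219 ± 727. Slc7a11 reached 1834 ± 870 per kb in that group and Gclc, at 390.2 ± 141, was then the lowest of the 10. Together the 10 genes took between 0.223% of a library, in control replicate 2, and 1.49%, in oxLDL+LPS replicate 3. Replicate 2 held the smallest share in each of the 4 groups, and 7 of the 10 genes had their lowest value in replicate 2 in all 4 groups.

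**Figure D1:**
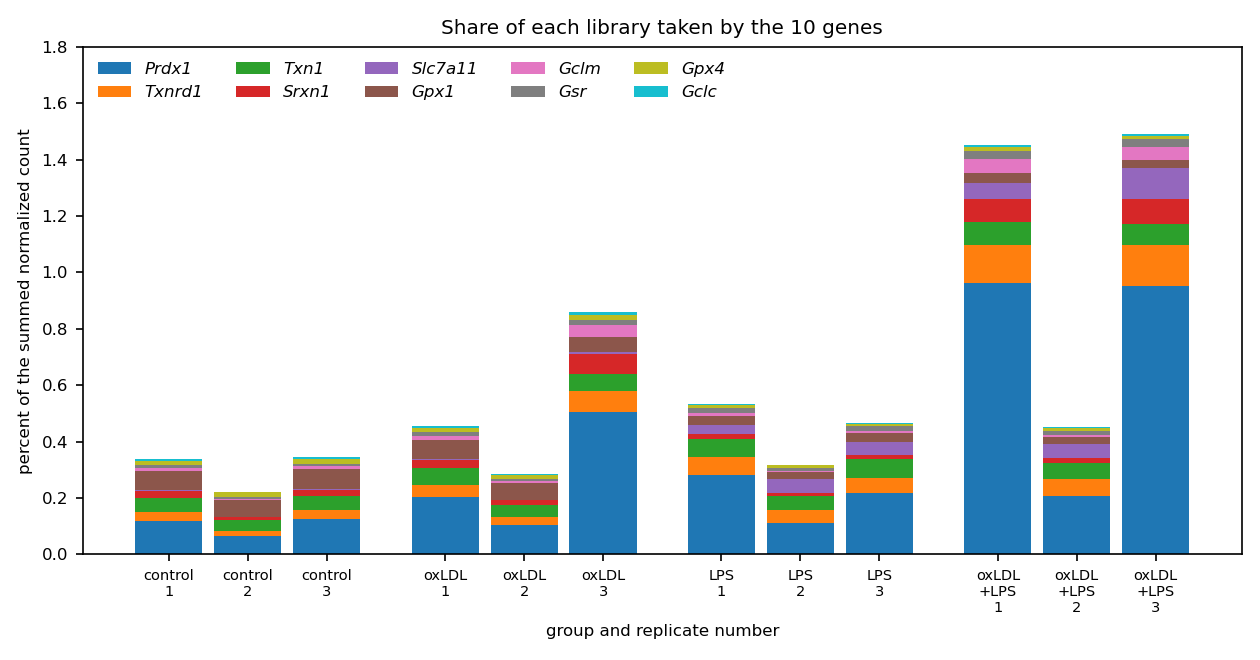
Share of the summed normalized count of each library (vertical axis, percent) taken by the 10 genes, as stacked bars for the 12 libraries by group and replicate number. Values are not divided by transcript length, so the bars compare libraries and not genes. The oxLDL+LPS libraries of replicates 1 and 3 stand at 1.45% and 1.49%, while that of replicate 2 stands at 0.450%, near the LPS libraries.

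Slc7a11, which brings in cystine for glutathione synthesis, had the widest range of the 10 genes, 103.6-fold between its lowest and highest library. Its normalized counts were 312, 252 and 322 in control replicates 1 to 3, 443, 338 and 1101 with oxLDL, 6633, 11399 and 12245 with LPS, and 13290, 11348 and 26118 with both. Control values were all below the oxLDL values, and the groups with LPS did not overlap those without it. Slc7a11 was 33.1-fold higher with LPS than in control PMφs (log2 difference 5.05 ± 0.23 SE, n = 3 and 3, adjusted p = 1.78e-06) and 28.7-fold higher in oxLDL+LPS than in oxLDL PMφs (4.85 ± 0.48, adjusted p = 0.000169). With oxLDL alone it was 1.86-fold higher, by 0.90 ± 0.39 without the block (adjusted p = 1) and by 0.90 ± 0.20 with it (adjusted p = 0.0369). In LPS-treated PMφs the oxLDL difference was 0.70, and it passed with the block (adjusted p = 0.0548) and not without it (adjusted p = 0.742). Replicate 2 showed no such difference, with 11399 in LPS and 11348 in oxLDL+LPS PMφs.

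For both subunits of glutamate-cysteine ligase, the 3 highest values were those of oxLDL replicate 3 and of oxLDL+LPS replicates 1 and 3. Gclc stood at 655, 561 and 809 in control replicates 1 to 3, 802, 695 and 1657 with oxLDL, 550, 632 and 582 with LPS, and 1614, 777 and 1616 with both. Gclm stood at 1750, 670 and 1624 in control PMφs, 2639, 1183 and 7556 with oxLDL, 2342, 1220 and 1693 with LPS, and 10850, 1859 and 11179 with both. For Gclc the oxLDL+LPS values were all above the LPS values, whereas for Gclm the replicate 2 value of 1859 lay among them. With oxLDL and no LPS, Gclc was 1.46-fold higher and Gclm 2.31-fold higher, and both passed with the block (adjusted p = 0.0322 and 0.0175) and not without it (adjusted p = 1 for both). In LPS-treated PMφs the oxLDL fold was 2.15 for Gclc and 3.60 for Gclm, with adjusted p = 0.0152 and 0.0114 with the block and 0.698 and 0.702 without it. With LPS alone neither passed without the block, with log2 differences of -0.18 ± 0.14 for Gclc (adjusted p = 0.317) and 0.45 ± 0.39 for Gclm (adjusted p = 0.361). Gclm rose in that comparison with the block (adjusted p = 0.0334).

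The reductases rose with LPS. Gsr stood at 1739, 1156 and 1561 in control replicates 1 to 3, 2095, 1473 and 2801 with oxLDL, 4070, 2813 and 4159 with LPS, and 6153, 3182 and 6176 with both. Txnrd1 stood at 5776, 3097 and 5630, at 7266, 4731 and 12819, at 14231, 10993 and 14234, and at 29758, 14021 and 34019 in the same order of groups. For both genes the libraries with LPS lay above their counterparts without it with no overlap, and replicate 2 was the lowest in each group. LPS raised Gsr 2.47-fold (log2 difference 1.31 ± 0.20, adjusted p = 0.000945) and Txnrd1 2.81-fold (1.49 ± 0.25, adjusted p = 0.00145). After oxLDL, the LPS folds were 2.41 for Gsr (adjusted p = 0.0136) and 3.18 for Txnrd1 (adjusted p = 0.0164). With oxLDL and no LPS, Gsr was 1.40-fold and Txnrd1 1.64-fold higher, which passed with the block (adjusted p = 0.0169 and 0.0116) and not without it (adjusted p = 1 for both). The oxLDL folds in LPS-treated PMφs were 1.36 and 1.85, with adjusted p = 0.0268 and 0.0141 with the block and 0.775 and 0.704 without it.

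Prdx1, the most abundant of the 10 genes per kilobase in the groups that received an agent, was also higher with LPS in every number. It stood at 20180, 11072 and 22304 in control replicates 1 to 3, 35541, 18103 and 88225 with oxLDL, 63702, 26801 and 57575 with LPS, and 212151, 48141 and 222173 with both. The LPS values did not overlap the control values, while the oxLDL+LPS values of replicates 1 and 3 were far above that of replicate 2, which lay among the LPS values. LPS raised Prdx1 2.70-fold (log2 difference 1.43 ± 0.38, adjusted p = 0.0143), and oxLDL+LPS PMφs had 7.69-fold more than control PMφs (2.94 ± 0.60, adjusted p = 0.00521). With oxLDL and no LPS it was 2.25-fold higher, and in LPS-treated PMφs 2.85-fold higher. These passed with the block (adjusted p = 0.01 and 0.0081) and not without it (adjusted p = 1 and 0.705).

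Srxn1, which repairs peroxiredoxins, was highest in the same libraries as Gclm. It stood at 4085, 1957 and 4196 in control replicates 1 to 3, 5282, 3097 and 12329 with oxLDL, 3999, 2612 and 3888 with LPS, and 17753, 4175 and 19950 with both. All oxLDL+LPS values lay above all LPS values, although that of replicate 2 did so by little. LPS alone left Srxn1 at a log2 difference of 0.09 ± 0.31 (95% interval -0.62 to 0.81, adjusted p = 0.823). In LPS-treated PMφs oxLDL made it 3.31-fold higher, by 1.73 ± 0.57 without the block (adjusted p = 0.698) and ± 0.26 with it (adjusted p = 0.00864). Without LPS the oxLDL fold was 1.82, with adjusted p = 1 without the block and 0.0175 with it.

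Txn1, the thioredoxin itself, varied less, 2.74-fold between its lowest and highest library. It stood at 8569, 6655 and 8570 in control replicates 1 to 3, 10428, 7589 and 10702 with oxLDL, 14820, 12440 and 17307 with LPS, and 18209, 12823 and 17810 with both. The groups with LPS lay above those without it with no overlap. LPS raised Txn1 1.87-fold (log2 difference 0.90 ± 0.16, adjusted p = 0.00202) and, after oxLDL, 1.70-fold (0.77 ± 0.19, adjusted p = 0.0128). The oxLDL difference without LPS was 0.26 ± 0.16 without the block (adjusted p = 1) and ± 0.05 with it (adjusted p = 0.0175). In LPS-treated PMφs it was 0.13, with a 95% interval of -0.09 to 0.35 in the blocked fit (adjusted p = 0.478).

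The glutathione peroxidases were the only 2 of the 10 genes that did not rise with oxLDL in a blocked fit. Gpx1 stood at 11912, 10617 and 12717 in control replicates 1 to 3, 11675, 10110 and 9155 with oxLDL, 7515, 6181 and 8629 with LPS, and 7547, 6067 and 6385 with both. All values with LPS were below all values without it. LPS lowered Gpx1 to 0.629 of its control level (log2 difference -0.67 ± 0.14, adjusted p = 0.00529) and to 0.647 of its level in oxLDL PMφs (-0.63 ± 0.13, adjusted p = 0.00554). Its oxLDL differences, -0.19 without LPS and -0.15 with it, passed in neither fit (adjusted p = 0.245 and 0.4 with the block), and replicate 3 had the most negative in both. Gpx4 stood at 2735, 2638 and 3264, at 3062, 2639 and 3338, at 2654, 1905 and 2697, and at 3342, 2058 and 2877 in the same order of groups, and every pair of groups overlapped. Its oxLDL differences of 0.07 without LPS and 0.18 with it had 95% intervals of -0.04 to 0.17 and 0.00 to 0.35 in the blocked fit, and neither passed (adjusted p = 0.553 and 0.2). The LPS difference of -0.26 passed with the block (adjusted p = 0.0572) and not without it (adjusted p = 0.192).

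**Figure D2:**
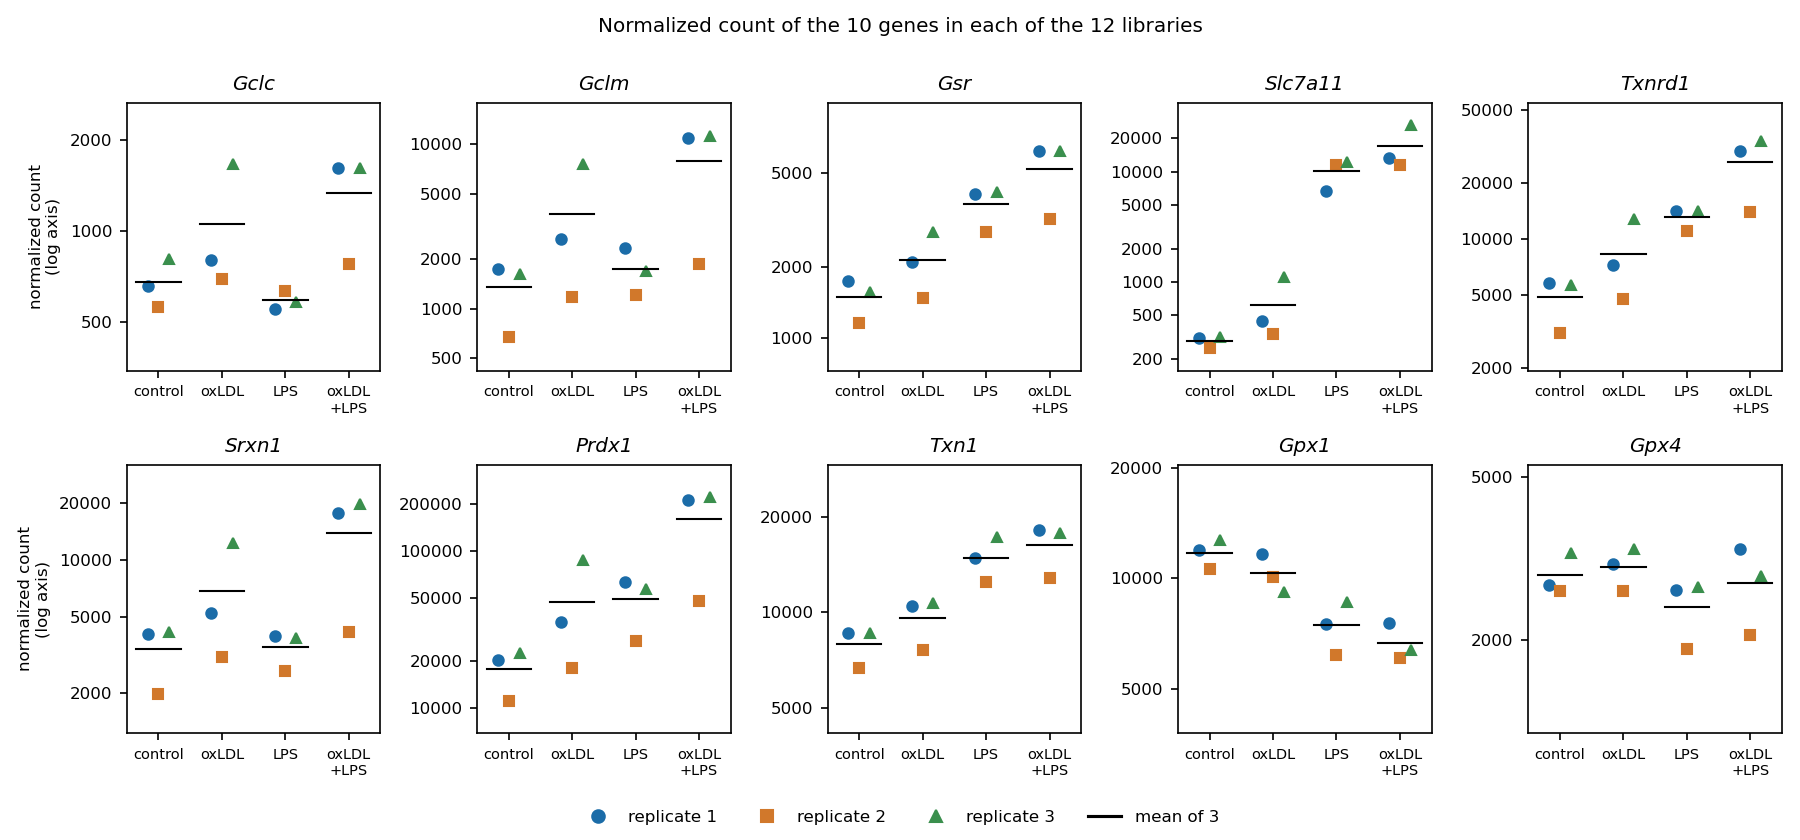
Normalized counts of the 10 genes (vertical log axes) in the 12 libraries by group, with circles for replicate 1, squares for replicate 2, triangles for replicate 3 and a line at the mean of the 3. Gsr, Slc7a11, Txnrd1, Prdx1 and Txn1 step up with LPS and Gpx1 steps down, while Gclc, Gclm and Srxn1 are high in the oxLDL+LPS libraries of replicates 1 and 3 and in the oxLDL library of replicate 3.

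The comparison of oxLDL with control PMφs asked what oxLDL accumulation does before any LPS. In the fit without a block none of the 10 genes passed, and neither did any other gene, 0% of 12751, although 381 genes had an unadjusted p under 0.05. With the replicate number as a block, 8 of the 10 rose, all but Gpx1 and Gpx4, beside 4.71% of genes called in either direction and 1.8% called higher. The median log2 difference of the 10 was 0.63, and that of all genes tested was -0.01. Higher in all 3 numbers were 9 of the 10, and 17.5% of all genes. Gpx1 was lower in all 3, as were 19.4% of all genes. Slc7a11 alone had groups that did not overlap, as 3.79% of genes did in this direction. The size of the differences rested on replicate 3, which had the largest difference for 8 of the 10 genes, with medians of 0.31, 0.39 and 1.11 in numbers 1 to 3. Without replicate 3 of both groups, the differences of the 8 genes were 0.24 to 0.76, lowest for Txn1 and largest for Prdx1, and without the block none passed. With the block 7, 4 and 8 of the 10 passed without replicate 1, 2 or 3 of both groups, in fits with 1 residual degree of freedom per gene. Of all genes, 214 of 12376, 139 of 12368 and 1285 of 12451 were called in these fits. The oxLDL library of replicate 3 also had the lowest summed count of mesothelial cell and fibroblast markers of its group, 5374 against 18815 and 13439, near the 5105 of control replicate 3 (8 of 8 markers present, 5105 to 23085 in control and 5374 to 18815 in oxLDL libraries). The part of these cells in the result was not tested.

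With LPS present, the comparison of oxLDL+LPS with LPS PMφs asked whether oxLDL still sets the 10 genes apart in stimulated cells. Without a block none passed, as for all genes, 0% of 12786, with 890 at an unadjusted p under 0.05. With the block 7 rose, all but Txn1, Gpx1 and Gpx4, beside 13.2% of genes called in either direction and 4.42% called higher. The median difference of the 10 was 0.79 beside -0.01 for all genes tested, and Gclc and Srxn1 had groups that did not overlap, as 6.18% of genes did in this direction. Higher in all 3 numbers were 8 of the 10, and 21% of all genes. Here replicate 2 stood apart. Its LPS and oxLDL+LPS libraries had 2 and 0 normalized counts over 4 Y-linked genes, against 1004 to 1783 in numbers 1 and 3. A part of sex in the result was not tested. The medians in numbers 1 to 3 were 1.03, 0.24 and 1.18, and 7 of the 10 genes had their lowest difference in number 2. Without the oxLDL+LPS library of replicate 2, Gclc (1.46, adjusted p = 0.0177), Gclm (2.70, adjusted p = 0.0244), Txnrd1 (1.28, adjusted p = 0.067) and Srxn1 (2.45, adjusted p = 0.0179) passed without a block, and 91 genes were called in all. With the block 0 of the 10 passed without replicate 1 of both groups, whose libraries differed in Xist, beside 71 of 12266 genes. Without replicate 3 of both groups 0 of the 10 passed, beside 0 of 12452 genes. Without replicate 2 of both groups 7 of the 10 passed, beside 2945 of 12334 genes. The blocked fits without a number have 1 residual degree of freedom per gene and lean on the variance shared across genes. Mesothelial cell and fibroblast markers summed to 5192 to 27672 in LPS and 4451 to 15778 in oxLDL+LPS libraries, lower with oxLDL in numbers 1 and 3 and higher in number 2 (8 of 8 markers present), and their part was not tested.

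**Figure D3:**
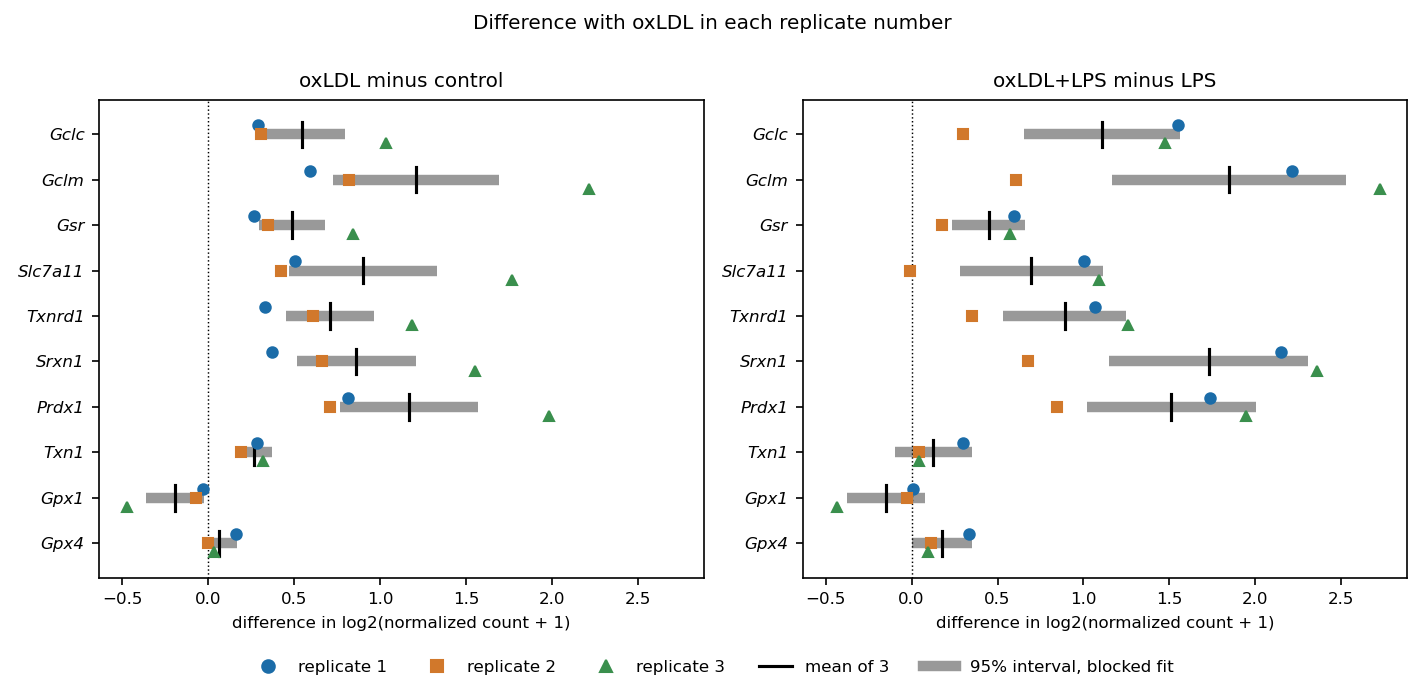
Differences in log2(normalized count + 1) with oxLDL for the 10 genes, without LPS on the left and with LPS on the right. Points are the replicate numbers, the short line is their mean and the grey bar the 95% interval of the fit blocked on replicate number. Replicate 3 has the largest differences on the left for 8 genes and replicate 2 the smallest on the right for 7.

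Whether the oxLDL differences with and without LPS differed was tested as an interaction over the 12 libraries. None of the 10 genes passed, nor any other gene, 0% of 13482, with 418 at an unadjusted p under 0.05. The largest estimates were those of Srxn1, 0.87 ± 0.86, Gclm, 0.64 ± 1.07, and Gclc, 0.56 ± 0.47, and the smallest in size those of Gsr, -0.04 ± 0.42, and Gpx1, 0.04 ± 0.20. With 1 block per replicate number and LPS state, an alternative chosen after seeing the data, 147 genes or 1.09% were called and again none of the 10. The 95% intervals then ran from -0.02 to 1.75 for Srxn1 (adjusted p = 0.366), from -0.11 to 1.23 for Gclc (adjusted p = 0.439) and from -0.38 to 0.30 for Gsr (adjusted p = 0.939). For Gclm the interval was -0.49 to 1.76, which spans a smaller and a much larger oxLDL difference with LPS.

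The comparison of LPS with control PMφs gives the response of cells without lipid. Gsr, Slc7a11, Txnrd1, Prdx1 and Txn1 rose and Gpx1 fell, 6 of the 10 genes, beside 61.7% of 13023 genes called in either direction, 31.4% higher and 30.3% lower, so the share of the 10 was near that of genes at large. The same 5 and Gpx1 had groups that did not overlap, which held for 63.2% of genes. With the block Gclm joined the higher and Gpx4 the lower genes, beside 68.7% of genes called. The median of the 10 was 0.68 and that of all genes -0.00097. This depends on the authors' scaling, since LPS libraries summed to more: rescaled to equal totals, the median of all genes moved by -0.48 and the share of called genes that were higher from 50.9% to 23.5%. The median of the 10 was then 0.19. At equal totals the 5 genes still rose, Slc7a11 by 4.57, Txnrd1 by 1.01, Prdx1 by 0.95, Gsr by 0.82 and Txn1 by 0.42, and Gpx1 was at -1.15. Gclc (-0.67, adjusted p = 0.00453) and Gpx4 (-0.75, adjusted p = 0.00394) were then called lower, and Gclm and Srxn1 turned to -0.035 and -0.39, short of a call. Of 13023 genes, 2210 were called higher and 7200 lower in that scaling. Without number 1 of both groups, whose cells differed in sex-linked transcripts, the same 6 genes passed, with Slc7a11 at 5.37, Txnrd1 at 1.58 and Prdx1 at 1.32 (adjusted p = 0.0774). In that fit 6549 of 12092 genes were called.

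LPS after oxLDL moved the same 6 genes in the comparison of oxLDL+LPS with oxLDL PMφs, 5 higher and Gpx1 lower, beside 54.5% of 12900 genes called, 28.2% higher and 26.3% lower. The median of the 10 was 1.02, beside -0.02 for all genes tested. Gsr, Slc7a11, Txnrd1 and Txn1 were higher and Gpx1 lower with no overlap, which held for 57.6% of genes in either direction. With the block Gclm (log2 difference 1.09, adjusted p = 0.0166) and Srxn1 (0.96, adjusted p = 0.0148) also rose, beside 63.4% of genes. Prdx1 passed by little, with a difference of 1.77 ± 0.74 and adjusted p = 0.0882. It no longer passed without oxLDL replicate 1 or 2 or without oxLDL+LPS replicate 1 or 3, at adjusted p = 0.187 to 0.256, nor without a filter on low values (adjusted p = 0.122), at equal totals (adjusted p = 0.148) or at equal upper quartiles (adjusted p = 0.114). Without number 1 of both groups and without a block, only Slc7a11 (4.82), Txn1 (0.75) and Gpx1 (-0.63) passed. Gsr (1.13, adjusted p = 0.108) and Txnrd1 (1.49, adjusted p = 0.131) did not. In that fit 5412 of 12113 genes were called. With the block 9 of the 10 passed without number 1, 7 higher and 2 lower, beside 7550 of 12113 genes. That blocked fit has 1 residual degree of freedom per gene. Number 1 had the largest difference for 8 of the 10 genes, with medians of 1.65, 0.70 and 0.71 in numbers 1 to 3. Its cells were not the same mixture in both groups, and the part of this was not tested. In LPS against control, number 1 had the most positive difference for 2 of the 10, with medians of 0.61, 0.88 and 0.54. Equal totals moved the median of all genes to -0.40 and left Gclc at -0.013. They took Prdx1 and Txn1 (0.37, adjusted p = 0.133) out of the calls and called Gpx4 lower (-0.54, adjusted p = 0.0456). So 3 of the 10 were higher and 2 lower, beside 2055 higher and 6617 lower of 12900 genes. The median of the 10 was then 0.63.

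**Figure D4:**
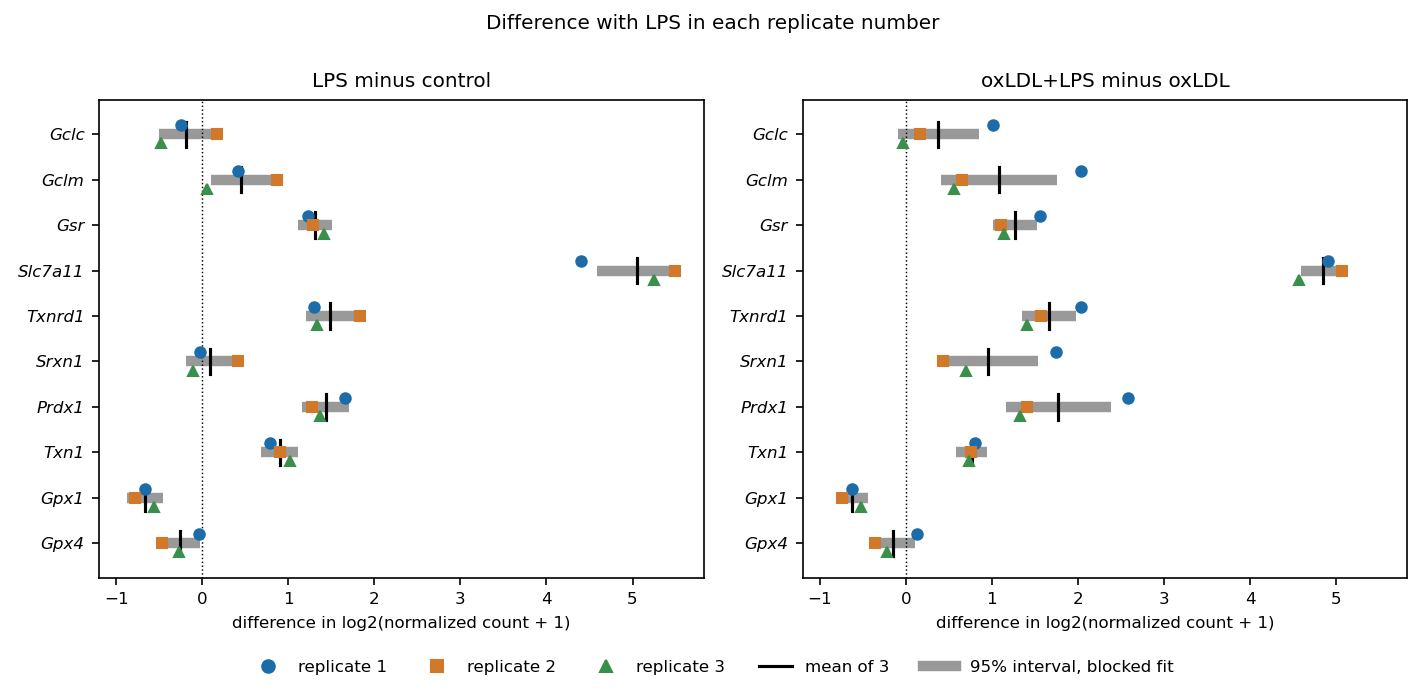
Differences in log2(normalized count + 1) with LPS for the 10 genes, in PMφs without oxLDL on the left and after oxLDL on the right, with points, lines and grey bars as in the plot of the oxLDL differences. Slc7a11 lies at 5.05 and 4.85 on average, and replicate 1 has the largest difference for 8 of the 10 genes after oxLDL.

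Both agents together were compared with neither. In oxLDL+LPS PMφs 8 of the 10 genes were higher than in control PMφs and Gpx1 lower, beside 57.2% of 12908 genes called in either direction, 29.2% higher and 28% lower, and with the block 8 and 1 were again called, beside 63.9% of genes. Groups that did not overlap were found for 7 of the 10, all of these but Gclc and Srxn1, and for 59.6% of genes. The median of the 10 was 1.79 and that of all genes -0.01. Slc7a11 was 53.6-fold higher, Prdx1 7.69-fold, Txnrd1 5.20-fold, Gclm 4.91-fold, Srxn1 3.53-fold, Gsr 3.38-fold, Txn1 2.04-fold and Gclc 1.89-fold. Gpx1 was at 0.567 of control (adjusted p = 0.000993) and Gpx4 at 0.944 (adjusted p = 0.734). In the fit without a block, the calls of Gclc (adjusted p = 0.0341), Gclm (0.0321 after adjustment) and Srxn1 (0.0399) rested on single libraries. Gclc and Srxn1 no longer passed without control replicate 2 or oxLDL+LPS replicate 1 or 3, and Gclm without control replicate 2 or oxLDL+LPS replicate 3, at adjusted p up to 0.131. Without number 1 of both groups the adjusted p were 0.201 for Gclc, 0.134 for Gclm and 0.166 for Srxn1, while the other 5 higher genes and Gpx1 still passed. In that fit 5782 of 12105 genes were called. With the block 10, 9 and 9 of the 10 passed without replicate 1, 2 or 3 of both groups, 8 of them higher each time. These blocked fits have 1 residual degree of freedom per gene and called 7275 of 12105, 6772 of 12172 and 5847 of 12264 genes. At equal totals and without a block, 24.4% of the called genes were higher in place of 51.1%. The median of all genes moved to -0.40 and that of the 10 to 1.39. Gclc was then at 0.53 (adjusted p = 0.163) and Gpx4 was called lower at -0.48 (adjusted p = 0.0629). Of 12908 genes, 2127 were called higher and 6586 lower in that scaling. Mesothelial cell and fibroblast markers summed to 5105 to 23085 in control and 4451 to 15778 in oxLDL+LPS libraries, with 5 of 8 lower and 1 higher in the blocked fit and 0 called without a block, and their part was not tested. This comparison shares its control libraries with the LPS comparison and with the oxLDL comparison.

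The order of the 4 group means differed between the genes. For Gsr, Slc7a11, Txnrd1, Prdx1 and Txn1 the means rose from control to oxLDL to LPS to oxLDL+LPS. The step from oxLDL to LPS was free of overlap for Gsr, Slc7a11 and Txn1, and that from control to oxLDL for Slc7a11, while the other neighbours overlapped. For Gclm and Srxn1 the order was control, LPS, oxLDL and oxLDL+LPS, with overlap at each step, and for Gclc LPS was the lowest. For Gpx1 the order ran the other way, from oxLDL+LPS through LPS and oxLDL up to control, with a step free of overlap between LPS and oxLDL. Correlations of log2 values centred within each number, over 12 libraries that share treatments, were 0.99 between Gclm and Srxn1, 0.96 between Gclc and Srxn1 and 0.98 between Gsr and Txnrd1, but 0.26 between Gclc and Slc7a11 and -0.97 between Slc7a11 and Gpx1.

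Other genes of the glutathione system gave a mixed picture. Of 32 listed, 25 were tested without LPS and none passed with oxLDL in the fit without a block. With the block Esd, Abcc1 and Mgst1 rose and Gpx3 fell, and the median of the list was 0.10. Of all genes, 1.8% were called higher in that fit and 4.71% in either direction. Abcc1, which exports glutathione conjugates, stood at 1538, 1087 and 1359 in control replicates 1 to 3, 1944, 1395 and 3915 with oxLDL, 5798, 3755 and 6331 with LPS, and 14140, 5058 and 17674 with both. It was highest in the oxLDL+LPS libraries of replicates 1 and 3 like Gclm and Srxn1. In LPS-treated PMφs 5 of 24 rose with the block, Gss, Slc3a2, Esd, Abcc1 and Mgst1, and Gpx3 fell, with a list median of 0.12. Over all genes the shares in that fit were 4.42% called higher and 13.2% called in either direction. With LPS alone 6 of 25 rose and 10 fell without a block, with a median of -0.04, and after oxLDL 6 of 24 rose and 6 fell. The called shares lay near those of all genes, 61.7% and 54.5%. At equal totals the counts were 4 and 11, and 4 and 12. All genes then had 2210 higher and 7200 lower of 13023, and after oxLDL 2055 and 6617 of 12900. Slc3a2, the heavy chain that carries Slc7a11 to the cell surface, rose by 1.28 on the log2 scale with LPS (adjusted p = 0.000595) and by 1.51 after oxLDL (adjusted p = 0.000138), or by 0.80 and 1.12 at equal totals. Against control, oxLDL+LPS PMφs had 7 of 25 higher and 5 lower, beside 57.2% of all genes called. At equal totals they had 5 and 11, beside 2127 and 6586 of 12908 genes.

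In the thioredoxin system outside the 10 genes, all 25 listed genes were tested. With oxLDL 1 gene passed without LPS, Prdx6 (log2 difference 0.37, adjusted p = 0.0757), and Prdx6 (0.41, adjusted p = 0.0623) and Txnl4a (0.36, adjusted p = 0.0765) with LPS, all of them with the block alone. In these blocked fits 1.8% of all genes were called higher without LPS and 4.42% with it. The list medians were 0.03 and 0.08. LPS raised 7 and lowered 9 of the 25, and after oxLDL it raised 6 and lowered 8, both without a block, but 3 and 15, and 3 and 13, at equal totals. Under the authors' scaling the called shares lay near those of all genes, 61.7% and 54.5%. Prdx5, a peroxiredoxin of mitochondria and cytosol, stood at 3302, 2214 and 2812 in control PMφs and at 14898, 11472 and 14275 with LPS (log2 difference 2.30, adjusted p = 2.05e-05). Sesn1, a sestrin, went the other way, from 895, 787 and 1156 to 166, 101 and 107 (-2.93, adjusted p = 2.57e-05). In the combined comparison 8 rose and 8 fell, beside 57.2% of all genes called, or 3 and 14 at equal totals. Of 7 genes for selenoprotein synthesis, which Txnrd1, Gpx1 and Gpx4 need, Sephs2 rose with oxLDL in the blocked fits, by 0.25 without LPS (adjusted p = 0.0264) and 0.53 with it (adjusted p = 0.0114), and Pstk (0.77, adjusted p = 0.0572) with LPS. LPS raised Sephs1 (0.85) and lowered Sephs2 (-0.64) and Pstk (-1.71) without a block, and after oxLDL and in the combined comparison 1 of the 7 rose and 1 fell. At equal totals 1 rose and 5 fell in all 3 of these comparisons. Under the authors' scaling 61.7%, 54.5% and 57.2% of all genes were called in them. At equal totals the calls over all genes were 2210 higher and 7200 lower of 13023, 2055 and 6617 of 12900, and 2127 and 6586 of 12908.

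Most regulators were higher with LPS. Nfe2l2, which encodes NRF2, stood at 5020, 6425 and 6475 in control replicates 1 to 3, 4904, 5941 and 5428 with oxLDL, 10443, 10831 and 12297 with LPS, and 10335, 10865 and 12481 with both. The groups with LPS lay above those without it, and oxLDL left no difference that passed in either fit (-0.13, adjusted p = 0.218 with the block without LPS, and 0.00, adjusted p = 0.986, with LPS). LPS raised Nfe2l2 by 0.91 ± 0.13 (adjusted p = 0.000701) and Keap1, which marks NRF2 for degradation, by 1.67 ± 0.13 (adjusted p = 2.75e-05). It lowered Bach1, a repressor that binds the same elements, by 0.94 on the log2 scale, to 1726, 1400 and 1253 from 2727, 2649 and 2958 (adjusted p = 0.000532). Atf4, which drives amino acid transport genes under stress, stood at 3358, 4589 and 2890 in control PMφs and at 3900, 9186 and 5682 with LPS (0.73 ± 0.31, adjusted p = 0.0774). Its values were highest in replicate 2 in all 4 groups. Of the 10 regulators listed, 8 rose and 2 fell with LPS, beside 31.4% and 30.3% of all genes, without a block. After oxLDL 7 rose and 2 fell, beside 28.2% and 26.3% of all genes, also without a block. At equal totals 6 rose and 2 fell in both, with Nfe2l2 at 0.43 and 0.66, Keap1 at 1.18 and 1.10, and Bach1 at -1.42 and -1.02, while Atf4 did not pass (0.25 in both). All genes then had 2210 higher and 7200 lower of 13023, and after oxLDL 2055 and 6617 of 12900. With oxLDL none passed without a block. With it Sqstm1, a receptor for autophagy that binds KEAP1, rose without LPS (0.30, adjusted p = 0.0249), and Sqstm1 (1.30, adjusted p = 0.0152) and Mafg (0.39, adjusted p = 0.0839) rose and Maff fell (-0.54, adjusted p = 0.00928) with LPS. Of all genes, 4.71% without LPS and 13.2% with it were called in these blocked fits.

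**Figure D5:**
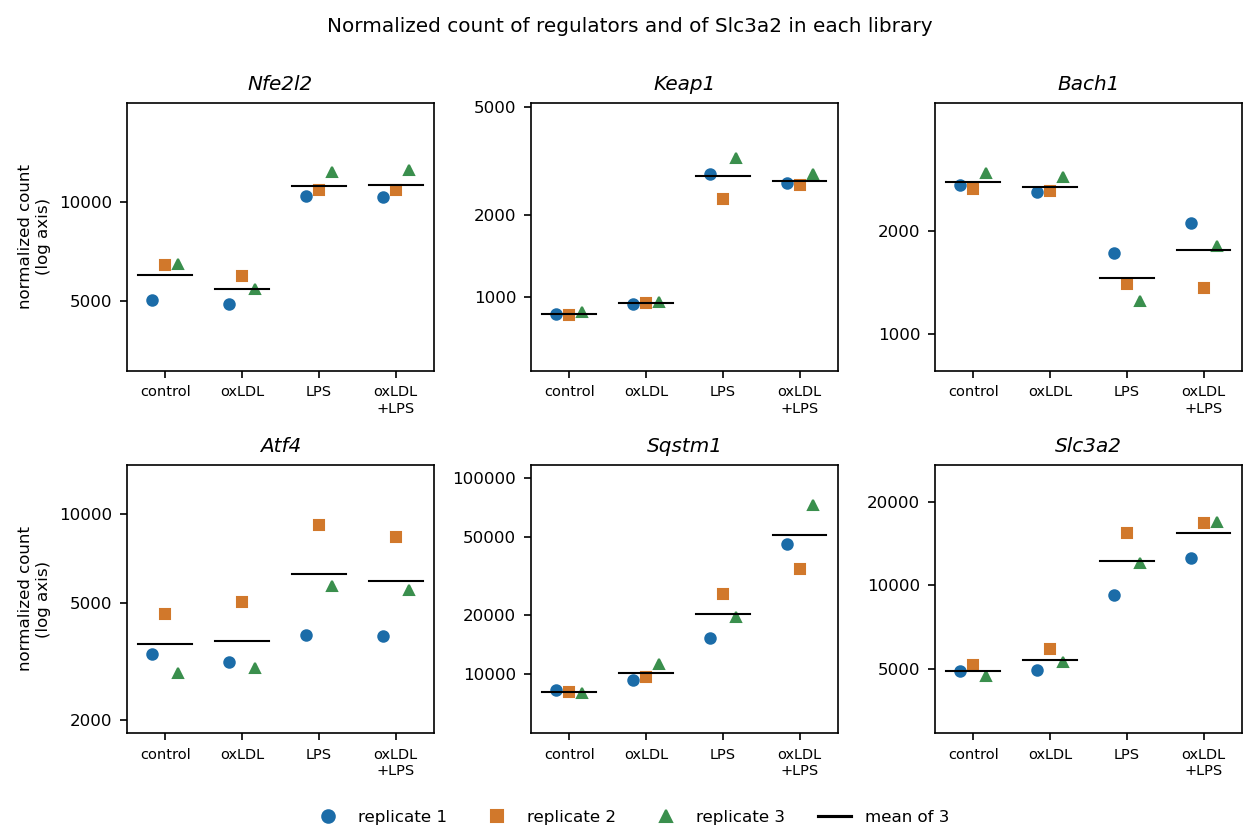
Normalized counts (vertical log axes) of the regulators Nfe2l2, Keap1, Bach1, Atf4 and Sqstm1 and of Slc3a2 in the 12 libraries by group, with circles for replicate 1, squares for replicate 2, triangles for replicate 3 and a line at the mean. Nfe2l2 and Keap1 sit higher and Bach1 lower with LPS, with or without oxLDL, and Atf4 is highest in replicate 2 of each group.

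Hmox1, heme oxygenase and another NRF2 target that was listed as a check of the oxLDL label, stood at 6901, 6421 and 6087 in control replicates 1 to 3, 9106, 7989 and 13359 with oxLDL, 16282, 8326 and 8635 with LPS, and 55988, 12622 and 43842 with both. Like Gclm and Srxn1 it was far lower in replicate 2 than in the other oxLDL+LPS libraries. It rose with oxLDL in the fit with the block (log2 difference 0.62, adjusted p = 0.0228) and did not pass without it.

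The genes whose pattern over the 12 libraries was most like that of each of the 10 genes, by Pearson's r of log2 values centred within each number among 13482 genes, are given as a description. Srxn1 and Gclm had each other and Pgd, an enzyme of the pentose phosphate pathway that makes NADPH, among their closest 3, with r = 0.995 for Srxn1 and Pgd and 0.988 for Gclm with either. Panx1 was also among the closest 3 of both. Gclc was most like Clec4n (0.976), Gsr like Alas1 (0.994), Txnrd1 like Clec4d (0.996), Slc7a11 like Ptges3 (0.996), Txn1 like Psmd14 (0.996) and Gpx1 like Add1 (0.990). Gsr and Txnrd1 both had Procr among their closest 3. Prdx1 was most like Tonsl (0.986), and Gpx4, which varied least, was most like Ehhadh (0.963).

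Reads can be shared between near-identical copies. Copies with at least 90% identity over at least 20% of the transcript were found for Prdx1 (3 in the table), Txn1 (1 in the table) and Gpx4 (2, neither in the table). Those of Prdx1 held 0.211% to 0.347% of its normalized count and that of Txn1 0.0156% to 0.105%. Gm7204, second among the genes most like Prdx1, is 1 of its copies and may share its reads. Counts of Gpx4 are uncertain to the extent that its reads also match its copies. Gclm overlaps Gm17494 on the other strand, which reached at most 29 normalized counts, and Slc7a11 and Txnrd1 overlap genes that were not in the table. Whether counting used the strand is not stated.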

How the data were processed

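RNA of peritoneal macrophage cultures was sequenced from poly(A) libraries made with a directional kit, 3 in each of 4 groups. Per the submitters' processing notes and the study's methods, the authors used Trimmomatic 0.32 for trimming, STAR 2.5.1b for alignment to GRCm38 (mm10) and featureCounts for counting per gene. The deposited values are recorded here as a score, because the authors divided the gene counts by 1 factor per library and rounded them, so they are normalized counts and not raw counts. No count model was therefore run. The factors themselves were not given and were estimated from the spacing of the rounded values. Of 43278 genes, 18273 were at 0 in every library, and 25 symbols had been turned into dates.

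Each comparison was fitted with limma 3.58.1 (R 4.3.3) on log2(value + 1) of its 6 libraries, with a prior variance that follows the mean, over genes that reached a value of 10 in 3 or more of these libraries. The interaction used all 12 libraries. The p-values were adjusted by the Benjamini-Hochberg method over all genes tested and called under 0.1. They measure the spread between cultures of combined mice, except that the blocked fits without a replicate number lean on the variance shared across genes. An exact permutation test of 3 against 3 libraries cannot go below p = 0.1 and was not used for calls. Replicate numbers come from the labels, and deviations of same-numbered libraries within an LPS state correlated at 0.664 to 0.733, above 0.1 in every pair, while number 1 was not the same mixture of cells in both LPS states. Alternatives were the replicate block, other pseudocounts, filters and scalings, 1 fit of all 12 libraries, and leaving out each library. After seeing the data, leaving out a replicate number of both groups and a block per number and LPS state were added. The fitting was tested on simulated data. The 10 genes are fixed by name, and other lists hold further genes of the same systems. The plan was to name 4 regulators and the called genes with the lowest p, at most 5 per comparison. The text departs from it: further called genes are named in some comparisons, and Msrb1, which the rule selects with LPS, is not. The 10 genes and the lists were chosen with earlier results of these data known. Python 3.11.15 with pandas 2.3.3 and numpy 2.4.6 was used for the descriptions. Levels per kilobase divide by the length of the principal transcript in GENCODE M21 on GRCm38, whereas the authors counted on release M4.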

Additional observations from a re-analysis of the deposited data

How the results depend on the processing

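Cultures of combined mice, 3 per group, and values without raw counts limit these comparisons, so a difference that did not pass is not shown to be absent. The replicate block decided the calls with oxLDL. It called 601 genes and 8 of the 10 without LPS and 1682 genes and 7 of the 10 with LPS, where the unblocked fits called 0. Fitting all 12 libraries together called 29 genes for oxLDL with LPS, and a block per number and LPS state 147 genes for the interaction. The block for LPS against no LPS assumes that a number marks the same cells, and by sex-linked transcripts number 1 did not.

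Leaving out libraries moved the oxLDL counts most. Without LPS the unblocked fits called 0 genes throughout, and the blocked fits without replicate 1, 2 or 3 called 214, 139 and 1285 genes and 7, 4 and 8 of the 10. With LPS the blocked fits called 71, 2945 and 0 genes, with 0 to 7 of the 10. These blocked fits have 1 residual degree of freedom per gene and lean on the variance shared across genes. The smallest adjusted p was 2.1e-116 in the fit that called 1285 genes and 2.5e-195 in that with 2945. A gene's own spread with 1 degree of freedom cannot give such values. Without LPS, leaving out 1 library gave 0 genes. With LPS it gave 0 to 91 genes and 0 to 4 of the 10, the highest without oxLDL+LPS replicate 2, and leaving out replicate 2 of both groups gave 67 genes and 3 of the 10. For LPS after oxLDL, 3 of the 10 passed without replicate 1 of both groups in the unblocked fit and 9 in the blocked fit. The range over all fits was 3 to 9. The interaction gave 0 to 9 genes, with 6 without oxLDL+LPS replicate 2, and none of the 10.

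Scaling turned some small differences that did not pass. At equal totals, LPS without oxLDL left Gclm at -0.035 and Srxn1 at -0.39, and at equal upper quartiles Srxn1 was at -0.13. At equal totals Gclc was at -0.013 for LPS after oxLDL and Gsr at 0.054 for the interaction. The other scaled, filtered and pseudocount values kept their direction. Leaving out libraries turned the sign of differences that had not passed. Gpx4 ranged from -0.012 to 0.16 with oxLDL, from -0.30 to 0.048 for LPS after oxLDL and from -0.27 to 0.11 for both agents against control, with -0.24 without oxLDL+LPS replicate 1 and 0.054 without replicate 2 of both groups. Srxn1 with LPS ranged from -0.27 to 0.29, with -0.070 without replicate 2 of both groups. For the interaction the ranges were -0.0012 to 1.49 for Gclm, -0.28 to 0.28 for Gsr, -0.57 to 0.30 for Slc7a11, -0.16 to 0.58 for Txnrd1, -0.20 to 1.06 for Prdx1, -0.30 to 0.026 for Txn1, -0.088 to 0.15 for Gpx1 and -0.050 to 0.31 for Gpx4. Without replicate 3 of both groups Gsr was at 0.078 and Slc7a11 at 0.035, without replicate 2 Gsr was at 0.027, and without replicate 1 Txnrd1 was at -0.095. The cause of these turns was not tested.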
